A study of Drosophila melanogaster with 12 samples.

Results

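The 5 genes described here, msl-1, msl-2, msl-3, mle and mof, encode the protein subunits of the male-specific lethal (MSL) dosage compensation complex of Drosophila melanogaster. They were found by their symbols: a probe set was taken when the annotation of the array gave it exactly 1 gene and that gene was one of the 5. This gave 6 of the 18769 probe sets tested, 1 for each gene except msl-3, which was read by 2 probe sets. The animals came from LHm, an outbred laboratory population kept at 25 °C, with no treatment or engineered allele named in the labels. Whole females and whole males were taken as larvae of the third instar, as pupae and as adults, which makes 6 groups. Each group had 2 biological replicates of 10 pooled animals, 1 Affymetrix Drosophila Genome 2.0 array each, so 12 arrays in all. Ages within a stage and mating status were not given in the sources used here, and a whole-animal level sums over all tissues.

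In the fruit fly, males have a single X chromosome and females a pair, and the MSL complex binds the male X and raises the transcription of its genes. MSL-2 is the subunit whose production is limited to males, since in females the RNA-binding protein Sxl blocks the translation of its messenger RNA. The complex also contains the noncoding roX RNAs, which MLE loads into it. The other subunits are made in both sexes, and eggs receive some of their products from the mother.

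Levels are given on the log2 scale, as the authors computed them with RMA, which gives each probe set 1 normalized value per array, and 1 unit is a doubling. Whether a low level lies above background cannot be read from these values. A level cannot be compared between probe sets, because probes differ in how strongly they bind.

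The sex labels were borne out by sex-limited genes. The 3 yolk protein genes Yp1, Yp2 and Yp3 had summed levels (log2 of the summed linear levels) of 16.17 to 16.27 in adult females and 8.14 to 8.36 in adult males. The 6 seminal fluid genes of the accessory gland list summed to 16.73 and 16.85 in adult males and to at most 6.82 in adult females. The glue genes Sgs3, Sgs4, Sgs5, Sgs7 and Sgs8, made by the larval salivary gland, had group means of at least 14.78 in larvae and at most 6.31 in pupae and adults. Lsp2, the other measured gene of the larval list, did not fall this way. Its means were 15.20 and 15.17 in female and male larvae and 15.03 and 15.07 in female and male pupae. In adults they were 9.94 in females and 13.01 in males. The summed level of the pupal cuticle genes went against their name, at 12.98 to 13.99 in larvae, led there by Pcp, and 8.48 to 8.63 in pupae. Within that list Edg84A had its top group mean, 7.39, in male pupae, with no group mean elsewhere above 5.13. The top group mean of Edg78E was in female pupae, at 4.475, next to 4.21 in female larvae. Edg91, like Pcp, was higher in larvae (8.31 in females and 7.96 in males) than in pupae (6.90 and 6.59). No 2 arrays of a group held an identical value. Female arrays had lower medians over all probe sets (6.27 to 6.44) than male arrays (6.73 to 6.81). The median over probe sets of the female minus male difference was nevertheless above 0 (0.23 for larvae, 0.37 for pupae, 0.21 for adults). Bacterial hybridisation controls, 16 probe sets, differed between the sexes by a median of 0.44 in larvae, 0.75 in pupae and 0.03 in adults. Larval and pupal sex differences of the genes described here are therefore also given relative to the median over all probe sets.

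msl-2, on chromosome arm 2L, encodes a RING finger protein that binds the X and nucleates the complex. Its probe set (1635840_s_at) is of a type whose probes match several transcripts, and the annotation names msl-2 alone. In larvae it read 6.03 and 5.80 in females and 7.29 and 7.45 in males. In pupae the female arrays read 6.18 and 6.11 and the male arrays 6.95 and 6.69. In adults these values were 5.47 and 5.54 in females and 6.46 and 6.52 in males. The lowest male array, an adult one, thus lay above the highest female array, a pupal one, and the sexes did not overlap at any stage. Of all probe sets, 9.19% had all 6 male arrays above all 6 female arrays, a pattern looked up after the msl-2 values were seen.

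The female minus male difference of msl-2 was -1.46 ± 0.12 in larvae (SE, n = 2 arrays per group, adjusted p = 4.58e-06), a 2.75-fold higher level in males. In pupae it was -0.67 ± 0.12 (adjusted p = 0.000983) and in adults -0.98 ± 0.12 (adjusted p = 2.61e-05). These 3 calls held under every alternative of scaling, filter, fit and left-out array, with differences between -1.64 and -0.30. Relative to the median of all probe sets the differences were -1.68, -1.04 and -1.19. The pupal call came closest to the threshold, at -0.31 under quantile normalization (adjusted p = 0.0491). Under array-median centring it was -0.30 (adjusted p = 0.0323).

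Across development the 2 sexes differed in the course of msl-2. In males it fell by 0.55 from larvae to pupae (SE 0.12, adjusted p = 0.00292). From male pupae to male adults the difference was -0.33 ± 0.12 (adjusted p = 0.0442), and 9 of 12 alternatives put it outside the threshold of 0.05, with adjusted p up to 0.303 without male pupae replicate 1. In females it did not pass the test from larvae to pupae (0.23 ± 0.12, 95% interval -0.04 to 0.50). It then fell by 0.64 from female pupae to female adults (SE 0.12, adjusted p = 0.000954). The sex difference was smaller in pupae than in larvae by 0.79 ± 0.17 (adjusted p = 0.00952). In order of level the groups ran male larvae, male pupae, male adults, female pupae, female larvae and female adults, and of these neighbours only female pupae and female larvae were not told apart (adjusted p = 0.148).

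**Figure D1:**
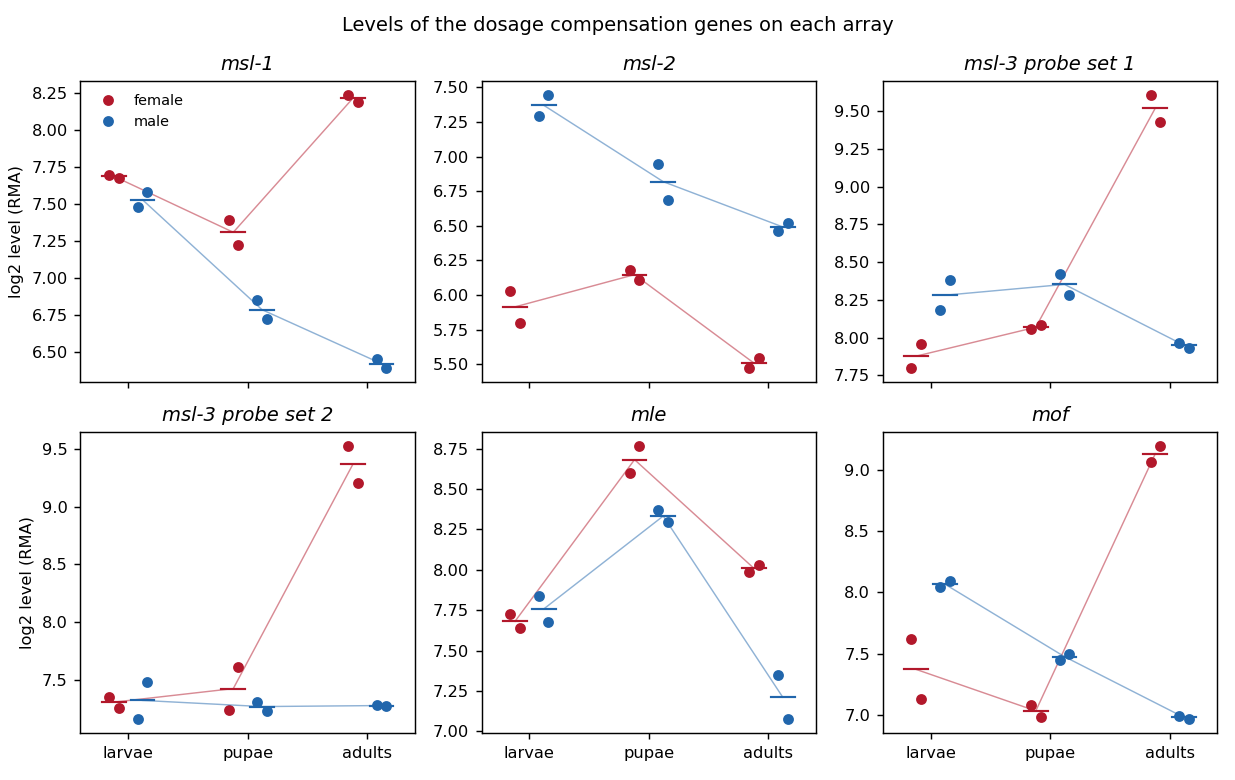
Log2 level (RMA) of each of the 6 probe sets, 1 panel each with its own axis, by stage and sex. Points are single arrays, short bars are group means of 2 arrays and thin lines join the means of 1 sex. The level of msl-2 is higher in males throughout, while msl-1, both msl-3 probe sets and mof are highest in adult females and mle in pupae. Both female adult arrays lie above the 10 others for 19.4% of all probe sets.

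msl-1, also on 2L, encodes the scaffold that holds MSL-2, MSL-3 and MOF together. Its probe set (1639438_at) read 7.70 and 7.68 in female larvae and 7.48 and 7.58 in male larvae. The pupal values were 7.39 and 7.23 in females and 6.85 and 6.72 in males. In adults they were 8.24 and 8.19 in females against 6.45 and 6.39 in males. The sexes were thus close together in larvae and farthest apart in adults, with the highest and the lowest group both adult.

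In larvae the sex difference of msl-1 did not pass the test (0.16 ± 0.10, 95% interval -0.06 to 0.38, adjusted p = 0.214), and it depended on the scaling. Recentring turned it to -0.02, and relative to the median of all probe sets it was -0.067. It was called at 0.42 under quantile normalization (adjusted p = 0.00712) and at 0.53 under array-median centring (adjusted p = 0.000725). It passed in pupae at 0.52 ± 0.10 (adjusted p = 0.0013), which is 0.16 above the median of all probe sets; after recentring it was 0.25 (adjusted p = 0.0835). In adults the level was 3.46-fold higher in females (1.79 ± 0.10, adjusted p = 3.16e-08). In males msl-1 fell by 0.74 from larvae to pupae (SE 0.10, adjusted p = 8.52e-05). From male pupae to male adults it differed by a further -0.36 ± 0.10 (adjusted p = 0.00953), a call lost without male pupae replicate 1 (-0.30, adjusted p = 0.0762) or male adults replicate 2 (-0.33, adjusted p = 0.0571). In females the difference from larvae to pupae was -0.38 ± 0.10 (adjusted p = 0.00925), lost without female pupae replicate 2 (-0.30, adjusted p = 0.072). From female pupae to female adults msl-1 rose by 0.90 ± 0.10 (adjusted p = 1.39e-05).

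mof is the only one of the 5 genes on the X chromosome. It encodes the histone acetyltransferase of the complex, which acetylates histone H4 on the male X, and it works in both sexes in a second assembly, the NSL complex, at promoters. The probe set (1633429_at) read 7.62 and 7.13 in female larvae, the widest pair of arrays among the groups of mof, and 8.04 and 8.09 in male larvae. In pupae it read 7.08 and 6.99 in females and 7.452 and 7.499 in males. In adults the female arrays stood at 9.07 and 9.20 and the male arrays at 6.995 and 6.965. The order of the sexes was thus opposite in adults to that in larvae and pupae.

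Levels of mof were 1.62-fold higher in male than in female larvae (female minus male -0.70 ± 0.14, adjusted p = 0.00401). In pupae the difference was -0.44 ± 0.14 (adjusted p = 0.0197). Relative to the median of all probe sets these values were -0.92 and -0.81. Without female larvae replicate 2 the larval difference was -0.45 and without female larvae replicate 1 it was -0.94, and it was called in both cases. The larval and the pupal difference kept their direction under each of the other 3 scalings, but under array-median centring the larval value was -0.32 (adjusted p = 0.0511) and the pupal one -0.07. The pupal call was also lost under quantile normalization (-0.08, adjusted p = 0.657), without female pupae replicate 2 (-0.40, adjusted p = 0.082), without male pupae replicate 1 (-0.47, adjusted p = 0.0593) and without male pupae replicate 2 (-0.42, adjusted p = 0.0796). In adults mof was 4.44-fold higher in females (2.15 ± 0.14, adjusted p = 1.38e-07). The change of the sex difference from pupae to adults, 2.59 ± 0.20 (adjusted p = 1.48e-06), was the largest among the 6 probe sets, and 96.0% of all probe sets had a lower value. It joined a rise in females of 2.10 ± 0.14 (adjusted p = 2.91e-07) to a difference in males of -0.50 ± 0.14 (adjusted p = 0.0129). The latter was lost without male pupae replicate 2 (-0.47, adjusted p = 0.0629) or male adults replicate 2 (-0.48, adjusted p = 0.0615). From larvae to pupae mof fell by 0.59 in males (SE 0.14, adjusted p = 0.00509). In females it did not pass over that step (-0.34 ± 0.14, adjusted p = 0.0775), although it did without female larvae replicate 2 (-0.58, adjusted p = 0.00246).

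msl-3, on 3L, encodes a chromodomain protein that binds the methylated histones of active genes and helps the complex spread along the X. The brighter probe set (1627738_a_at, probe set 1) read 7.80 and 7.96 in female larvae and 8.18 and 8.38 in male larvae. It read 8.06 and 8.08 in female pupae and 8.42 and 8.28 in male pupae. In adults the values were 9.61 and 9.43 in females and 7.97 and 7.93 in males. Male arrays were above female arrays before adulthood, and female adults stood above all other groups.

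The other msl-3 probe set (1630477_at, probe set 2) read 7.36 and 7.26 in female larvae and 7.16 and 7.49 in male larvae. In pupae it read 7.24 and 7.62 in females and 7.31 and 7.23 in males. The adult values were 9.52 and 9.20 in females and 7.29 and 7.28 in males. Here the sexes overlapped in larvae and in pupae, and only adult females stood apart.

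The 2 msl-3 probe sets therefore gave the same result in adults and different calls earlier. Probe set 1 was higher in adult females by 1.57 ± 0.11 (adjusted p = 2.71e-07) and probe set 2 by 2.08 ± 0.16 (adjusted p = 4.4e-07), or 2.97-fold and 4.23-fold. In larvae probe set 1 differed by -0.40 ± 0.11 (adjusted p = 0.0186) and probe set 2 by -0.015 ± 0.16 (95% interval -0.37 to 0.34). The call for probe set 1 was lost under array-median centring (-0.03), without female larvae replicate 1 (-0.32, adjusted p = 0.0999) and without male larvae replicate 2 (-0.30, adjusted p = 0.136). In pupae probe set 1 differed by -0.28 ± 0.11 (adjusted p = 0.0457), a call lost without any 1 of the 4 pupal arrays (adjusted p from 0.0569 to 0.216), and array-median centring turned the value to 0.09. Probe set 2 differed in pupae by 0.16 ± 0.16 (95% interval -0.20 to 0.51) as deposited. It was called at 0.51 under quantile normalization (adjusted p = 0.016) and at 0.53 under array-median centring (adjusted p = 0.0081), and was -0.11 after recentring. Relative to the median of all probe sets probe set 1 stood at -0.63 in larvae and -0.65 in pupae, and probe set 2 at -0.24 and -0.21. Over the 12 arrays the probe sets had a Pearson r of 0.94, which rests largely on the adult female arrays they share. From female pupae to female adults probe set 1 rose by 1.45 ± 0.11 (adjusted p = 8.54e-07) and probe set 2 by 1.94 ± 0.16 (adjusted p = 1.3e-06).

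mle, on 2R, encodes an RNA helicase that remodels the roX RNAs and also acts on other transcripts in both sexes. Its probe set (1629507_a_at) read 7.72 and 7.64 in female larvae and 7.84 and 7.68 in male larvae. It was highest in pupae, at 8.60 and 8.77 in females and 8.37 and 8.30 in males. In adults it read 7.99 and 8.03 in females and 7.35 and 7.08 in males. All 4 pupal arrays lay above the 8 others, as they did for 8.38% of all probe sets, and mle was the only one of the 6 to show this.

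Over the step from larvae to pupae mle rose in females by 1.00 ± 0.12 (adjusted p = 3.78e-05) and in males by 0.58 ± 0.12 (adjusted p = 0.00184). The change of its sex difference over that step, 0.43 ± 0.17, did not pass the test (adjusted p = 0.113). From pupae to adults it fell by 0.67 in females (SE 0.12, adjusted p = 0.000535) and by 1.12 in males (SE 0.12, adjusted p = 1.19e-05). The larval sexes did not differ past the threshold (-0.08 ± 0.12, 95% interval -0.34 to 0.19; -0.30 relative to the median of all probe sets), and the sign turned under quantile normalization (0.12) and array-median centring (0.29, adjusted p = 0.045). In pupae mle was called higher in females by 0.35 ± 0.12 (adjusted p = 0.0244). That difference is close to the median of all probe sets (-0.02 relative to it) and was 0.08 after recentring (adjusted p = 0.66). It was lost without female pupae replicate 2 (0.26, adjusted p = 0.134), male pupae replicate 1 (0.38, adjusted p = 0.0588) or male pupae replicate 2 (0.31, adjusted p = 0.104). In adults mle was 1.74-fold higher in females (0.80 ± 0.12, adjusted p = 0.000113).

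**Figure D2:**
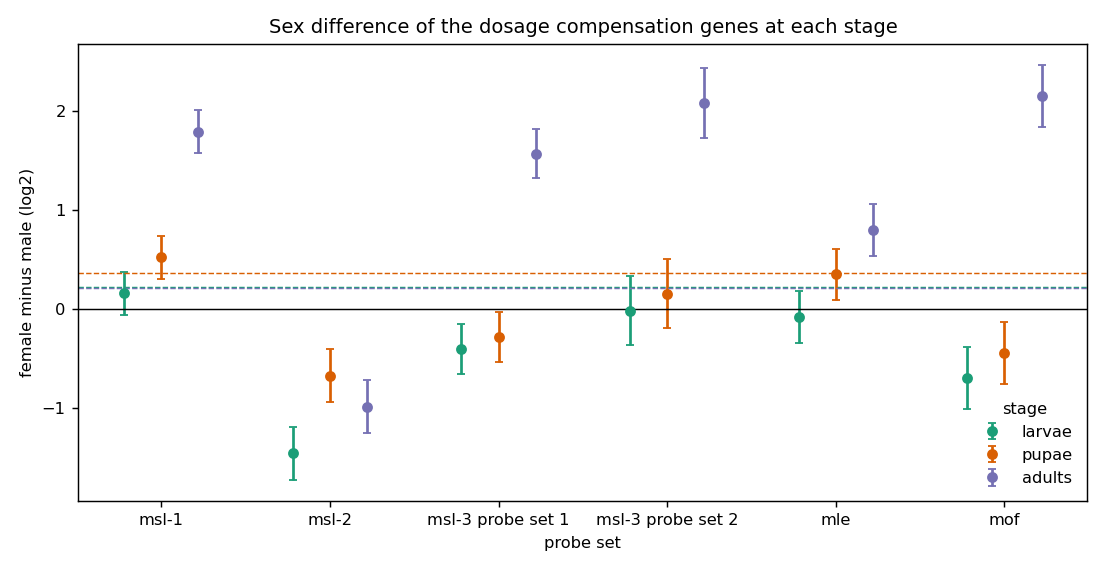
Female minus male difference (log2) of each probe set in larvae, pupae and adults. Points are limma estimates from 2 arrays per group, bars are 95% intervals and dashed lines are the medians of all probe sets at each stage (0.23, 0.37 and 0.21); msl-2 is below 0 at each stage and the other 5 probe sets are above 0 in adults.

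The sex difference of the 6 probe sets was then counted at each stage. In larvae 3 were lower in females (msl-2, mof and msl-3 probe set 1) and 0 higher, with 3 not called. At that stage 11.9% of all probe sets were called lower and 27.1% higher in females. The larval split depended on the scaling too: array-median centring gave 2 higher (msl-1 and mle) and 1 lower (msl-2), quantile normalization 1 higher (msl-1) and 3 lower, and recentring 0 higher and 3 lower. Of all 18769 probe sets, array-median centring called 14871 higher in female larvae and 1790 lower. Quantile normalization called 5841 higher and 2171 lower, and recentring 1400 and 2775. In pupae 2 were higher in females (msl-1 and mle) and 3 lower (msl-2, mof and msl-3 probe set 1), where 51.9% of all probe sets were higher and 14.3% lower. In adults 5 were higher and 1, msl-2, was lower, against 39.0% higher and 26.6% lower over all probe sets. The 6 differences had a median of -0.24 for larvae, -0.06 for pupae and 1.68 for adults, beside 0.23, 0.37 and 0.21 for all probe sets. The adult count stayed at 6 of 6 under all alternatives that tested all 6. The pupal count of 5 was lower with any pupal array left out, where calls over all probe sets were fewer too. The scalings disagreed on its balance. Quantile normalization and array-median centring each gave 3 higher in females (msl-1, msl-3 probe set 2 and mle) and 1 lower (msl-2), whereas recentring gave 0 higher and 3 lower. Of all 18769 probe sets, array-median centring called 15133 higher in female pupae and 2172 lower. Quantile normalization called 8835 higher and 2640 lower there, and recentring 3311 and 3382.

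Called lower in females as larvae and as pupae, and higher as adults, were mof and msl-3 probe set 1. Over the array 186 of 18769 probe sets, or 0.991%, had that combination, which was looked up after the values of these genes were seen. For both probe sets the pupal call depended on the scaling and on single arrays, as given above. Called lower in females at all 3 stages were 9.59% of probe sets, msl-2 among them. Both female adult arrays lay above the 10 others for 19.4% of all probe sets, msl-1, both of msl-3 and mof among them. Both male adult arrays lay below the 10 others for 23.4%, msl-1 and mle among them.

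Adult females differed from the other groups in their ovary and maternal markers too. All 12 measured genes of the ovary and maternal list were higher in adult females than in adult males, with a median difference of 8.33. Their summed level was 16.82 to 16.85 in adult females and 8.55 to 9.17 in every other group, including adult males. All 12 had group means of at most 6.58 outside adult females, and osk, which organises the germ plasm, stood at 12.74 in them and at most 4.83 elsewhere. Of the 13 testis genes, 12 were lower in females in larvae, 13 in pupae and 12 in adults. Their summed level was 13.65 to 13.89 in male larvae, 15.55 to 15.59 in male pupae and 15.47 to 15.53 in male adults. Female groups had testis sums between 9.11 and 10.05, led in adult females by twe (8.98), a phosphatase gene of meiosis in both sexes. The part of ovary and testis in the levels of the 5 genes was not tested, and in whole animals a larger share of a tissue cannot be told apart from more RNA per cell.

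The calls over each stage step were counted within each sex. From pupae to adults in females 4 probe sets rose (msl-1, both of msl-3, and mof) and 2 fell (msl-2 and mle), against 27.2% of all probe sets in each direction. In males over the same step 0 were called higher and 5 lower, all but msl-3 probe set 2 (0.0089 ± 0.16), against 18.8% higher and 32.2% lower. The value of msl-3 probe set 1 was -0.40 ± 0.11 (adjusted p = 0.0112), lost without male pupae replicate 1 (-0.33, adjusted p = 0.0851) or male adults replicate 2 (-0.39, adjusted p = 0.0565). This male count was lower with any male pupal or male adult array left out, where calls over all probe sets were fewer too. It was 3 under quantile normalization, where 48.8% of all probe sets were called. From larvae to pupae in females 1 was higher (mle) and 1 lower (msl-1), against 25.7% and 19.6%. In males 1 was higher (mle) and 3 lower (msl-1, msl-2 and mof), against 27.2% and 21.2%. The male count of 4 over that step was the same under all alternatives that tested all 6 probe sets.

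Over the whole span from larvae to adults, 5 probe sets rose in females and 1, msl-2, fell, against 28.2% and 24.3% of all probe sets. The msl-1 difference was 0.53 ± 0.10, and 0.26 under quantile normalization (adjusted p = 0.0524). The largest of these were msl-3 probe set 2 at 2.05 ± 0.16, mof at 1.76 ± 0.14 and msl-3 probe set 1 at 1.64 ± 0.11. The mle difference of 0.33 ± 0.12 (adjusted p = 0.0378) was lost without any 1 of the 4 arrays (adjusted p from 0.063 to 0.146), and it was 0.11 under quantile normalization (adjusted p = 0.509). The msl-2 difference of -0.41 ± 0.12 (adjusted p = 0.0156) was lost without female larvae replicate 1 (-0.29, adjusted p = 0.115) or female adults replicate 1 (-0.37, adjusted p = 0.0783), and under array-median centring (-0.26, adjusted p = 0.088). In males 0 were higher in adults and 5 lower, against 24.3% and 32.2%. These were msl-1 at -1.11 ± 0.10, mof at -1.09 ± 0.14, msl-2 at -0.88 ± 0.12, mle at -0.55 ± 0.12 and msl-3 probe set 1 at -0.33 ± 0.11. The last (adjusted p = 0.027) was lost without male larvae replicate 2 (-0.23), male adults replicate 1 (-0.35) or male adults replicate 2 (-0.31).

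Whether the sex difference itself changed was tested as an interaction. From larvae to pupae 1 probe set was called, msl-2, with a higher female minus male value in pupae, and 0 were lower. The shares over all probe sets were 7.74% higher and 9.78% lower. From pupae to adults 5 were higher and 0 lower, against 26.1% and 25.5%. These were mof, msl-3 probe set 2 (1.93 ± 0.22), msl-3 probe set 1 (1.85 ± 0.16), msl-1 (1.27 ± 0.14) and mle (0.45 ± 0.17, adjusted p = 0.0442). The mle call was lost without any 1 of the 8 arrays other than female pupae replicate 2 and male adults replicate 1 (0.31 to 0.48). It was also lost under quantile normalization (0.36, adjusted p = 0.143), with only the groups compared (adjusted p = 0.0586) and with a replicate block (adjusted p = 0.0505). For msl-2 the change was -0.31 ± 0.17 (95% interval -0.69 to 0.07). From larvae to adults all 6 were higher, against 27.2% higher and 27.6% lower, with mof at 2.85 ± 0.20 and msl-2 at 0.47 ± 0.17 (adjusted p = 0.0378). The msl-2 call was lost without any 1 of the 8 arrays other than female larvae replicate 1 and male larvae replicate 1 (0.36 to 0.51). It was also lost after recentring (0.40, adjusted p = 0.0835) and with a variance trend and robust estimation (adjusted p = 0.0729).

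The order of the 6 groups was set out for each probe set, and neighbours across sex and stage were compared as well. For msl-1 the order was female adults, female larvae, male larvae, female pupae, male pupae and male adults. Female and male larvae, and male larvae and female pupae (adjusted p = 0.0716), were not told apart. For mof female adults were followed by male larvae, male pupae, female larvae, female pupae and male adults. Of these, male pupae and female larvae (adjusted p = 0.519), female larvae and female pupae, and female pupae and male adults (adjusted p = 0.741) were not told apart. For both msl-3 probe sets the female adults were first, by 1.17 ± 0.11 over male pupae in probe set 1 and by 1.94 ± 0.16 over female pupae in probe set 2. None of the 4 following pairs of neighbours was told apart in either probe set. For mle the order was female pupae, male pupae, female adults, male larvae, female larvae and male adults. Female adults and male larvae (adjusted p = 0.0851) and male and female larvae were not told apart there. Among all probe sets, 64.2% were called between male larvae and female adults and 66.4% between male larvae and female pupae. The shares were 69.7% between female larvae and male pupae, 73.7% between female larvae and male adults, 69.2% between male pupae and female adults and 75.1% between female pupae and male adults.

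The relation among the 6 probe sets over the 12 arrays is given as a description, since the arrays share the 6 groups. Highest after the msl-3 pair were mof and msl-3 probe set 1 (r = 0.90), mof and msl-3 probe set 2 (0.85), and msl-1 and mof (0.76). msl-2 was below 0 against each of the others, from -0.63 with msl-3 probe set 2 to -0.12 with mle. mle had values between 0.03 and 0.21 with msl-1, msl-3 and mof. Compared with the other 11981 genes, msl-1 was most like Dref, which encodes a promoter-binding factor (r = 0.99), CG11777 (0.99) and Cul4 (0.99). msl-2 was most like ATPsynepsilonL (0.97), CG5421 (0.96) and CG4318 (0.94). The genes most like msl-3 were CtIP, CG1603 and dgrn (0.98 each), those most like mle were CG4612, aqz and pyd (0.98 each), and those most like mof were CG10979, Ibf2 and lds (0.97 each).

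Other genes of the pathway were read from 5 lists with 28 entries, of which 23 were measured. lncRNA:roX1, lncRNA:roX2, Top2, how and MBD-R2 had no probe set of a single gene and are not analysed here. In larvae 4 of the 23 were higher in females and 1 lower, with a median of 0.13. In pupae 13 were higher and 1 lower (median 0.33), and in adults 20 higher and 0 lower (median 1.77), beside the shares over all probe sets given above for each stage. Larval and pupal values of these genes carry the shift over all probe sets, whose medians were 0.23 and 0.37.

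Among the factors that guide or carry the complex, Clamp, a zinc finger protein that binds its entry sites on the X, did not differ in larvae past the threshold (-0.14 ± 0.09, adjusted p = 0.233). It was higher in adult females by 1.62 ± 0.09 (adjusted p = 4.35e-08). Set2, the methyltransferase whose histone mark MSL-3 recognises, was higher in adult females by 1.77 ± 0.12. The nuclear pore genes Nup153 and Mtor were higher by 2.69 ± 0.14 and 2.51 ± 0.11. Trl, which encodes the GAGA factor, was higher in female larvae (0.39 ± 0.10) and pupae (0.63 ± 0.10), and in adults its difference was 0.20 ± 0.10 (adjusted p = 0.109). JIL-1, a histone kinase enriched on the male X, was higher in female pupae (0.59 ± 0.15, adjusted p = 0.00624) and was -0.21 ± 0.15 in adults (adjusted p = 0.239). It fell by 2.24 from larvae to adults in females and by 2.11 in males, the one pathway gene called lower over that span in females.

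The genes that act on msl-2 messenger RNA were read by 4 of 5 entries. Unr, a partner of Sxl in translation block, was higher in females by 0.63 ± 0.12 in pupae (adjusted p = 0.00138) and 2.45 ± 0.12 in adults (adjusted p = 1.24e-08). Hrb27C, an RNA-binding protein, was higher by 0.41 ± 0.10 in pupae and 3.04 ± 0.10 in adults. Its pupal value is close to the median of all probe sets at that stage (0.37). pAbp, which binds poly(A) tails, did not pass in adults (0.33 ± 0.15, adjusted p = 0.0756). For Sxl the brightest of 3 probe sets was not called in larvae (0.26 ± 0.09, adjusted p = 0.0521) or pupae and was higher in adult females (1.23 ± 0.09). Another Sxl probe set was lower in adult females (-0.89 ± 0.11, adjusted p = 3.62e-05). The remaining one was higher in female larvae (2.14 ± 0.11) and pupae (2.75 ± 0.11) and lower in adult females (-0.38 ± 0.11), so the probe sets of Sxl disagreed.

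Of 4 chromatin factors whose loss alters the male X, all were higher in adult females, among them Su(var)3-7, a heterochromatin protein gene, by 1.80 ± 0.12, Iswi by 1.69 ± 0.12 and E(bx) by 1.62 ± 0.10. In larvae Su(var)3-7 was higher in females (0.38 ± 0.12) and E(bx) lower (-0.31 ± 0.10). Iswi, a remodelling ATPase, was lower in female pupae (-0.36 ± 0.12, adjusted p = 0.0222). All 5 measured partners of MOF in the NSL complex were higher in adult females, from nsl1 at 1.13 ± 0.09 to wds at 2.69 ± 0.10. In larvae 1 of these 5 was called, wds at 0.32 ± 0.10, and 0 were lower, whereas mof was lower in females at that stage. The relatives of MOF, the acetyltransferase genes Tip60, enok and chm, were higher in adult females by 1.88 ± 0.13, 1.58 ± 0.13 and 2.53 ± 0.11. MRG15, a chromodomain relative of msl-3, was higher in females at each stage, by 0.27 ± 0.09 in larvae (adjusted p = 0.0462), 0.42 ± 0.09 in pupae and 1.97 ± 0.09 in adults. Its larval and pupal values are close to the medians of all probe sets (0.23 and 0.37).

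**Figure D3:**
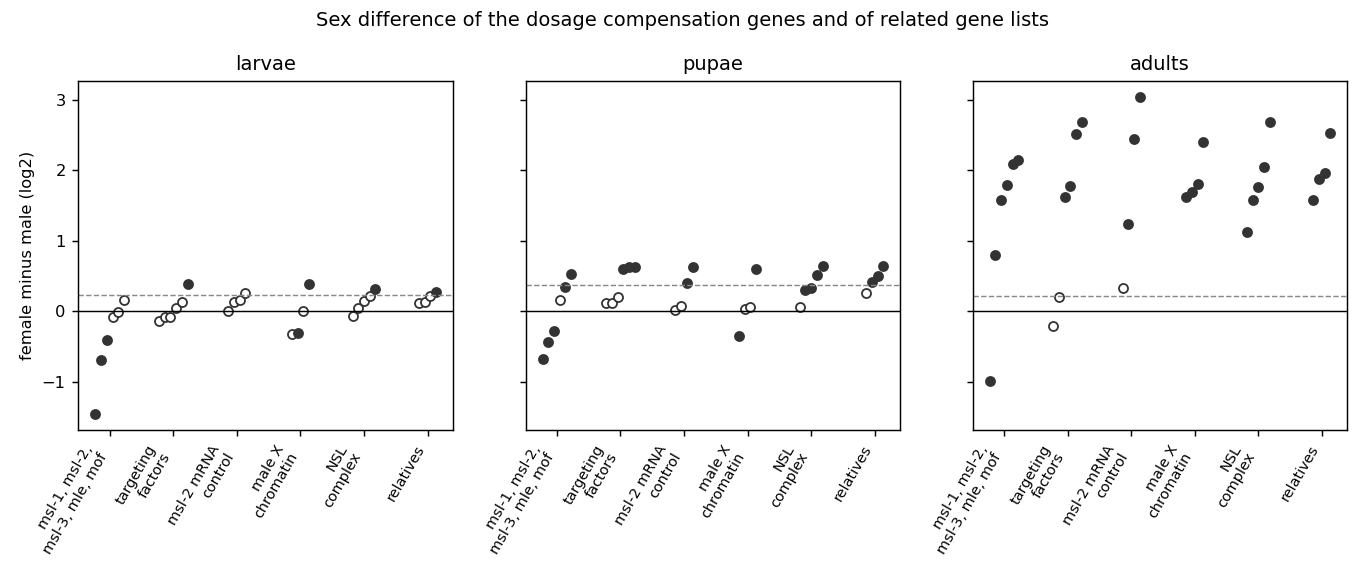
Female minus male difference (log2) of the 6 probe sets and of the 23 measured pathway genes (brightest probe set each), by list, in larvae, pupae and adults. Filled points passed an adjusted p of 0.05, open points did not and the dashed line is the median of all probe sets; msl-2 has the lowest value shown in each panel, and 20 of the 23 pathway genes are filled and above 0 in adults.

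From pupae to adults 18 of the 23 pathway genes rose and 2 fell in females (median 1.05), where 27.2% of all probe sets were called in each direction. In males 0 rose and 21 fell over that step (median -0.78), against 18.8% and 32.2% of all probe sets. From larvae to pupae 4 rose and 5 fell in females, against shares of 25.7% and 19.6%, and 3 rose and 9 fell in males, against 27.2% and 21.2%. Tested as an interaction over that earlier step, the sex difference was called higher for 1 of the 23 and lower for 0. The shares over all probe sets were 7.74% higher and 9.78% lower. Tested as an interaction from pupae to adults, the sex difference was called higher for 20 and lower for 2, against 26.1% and 25.5%. The 2 lower were Trl and JIL-1.

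Since the complex acts on X-linked genes, the sex difference of the X was set beside that of the autosomes. Over 1873 X-linked genes the median of female minus male values was 0.23 for larvae, 0.41 for pupae and 0.35 for adults. Over 9953 genes on the large autosome arms it was 0.14, 0.33 and 0.12. These medians are descriptions and carry the shift of the sexes over all probe sets. In larvae and pupae mof lay below the lower quartile of the X-linked genes (-0.0079 and 0.07), and in adults above their upper quartile (1.53).

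**Figure D4:**
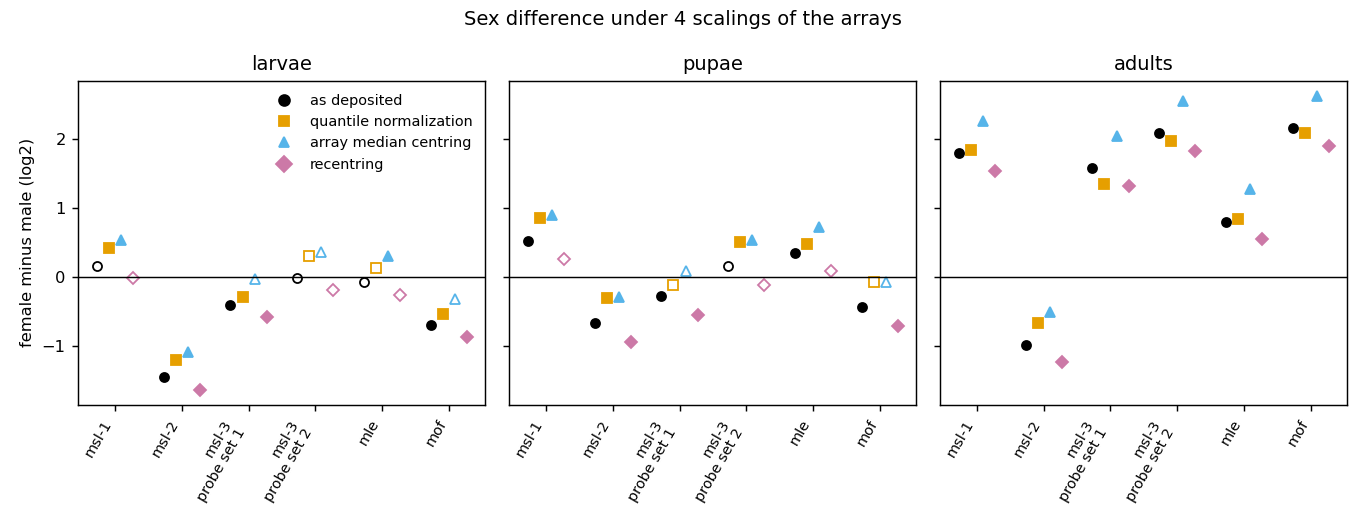
Female minus male difference (log2) of the 6 probe sets with the arrays as deposited and under 3 other scalings, in larvae, pupae and adults. Filled symbols passed an adjusted p of 0.05; in adults all 6 keep their direction and call under the 4 scalings, as does msl-2 at each stage, whereas in pupae msl-3 probe set 1 ranges from -0.55 to 0.09 and mle from 0.08 to 0.72.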

How the data were processed

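Messenger RNA was measured on 12 arrays, 2 for each of 6 sex and stage groups taken from the labels. The deposited values are log2 expression levels that the authors made with RMA, per the submitters' processing notes. The RMA version and settings were not stated there. In all, 18952 probe sets were listed. After removal of 183 control probe sets, 18769 were tested, of which 13647 carried 1 gene symbol, 402 several and 4720 none in the platform annotation. In the lists and correlations a gene was represented by its brightest probe set, judged by the mean of the 12 arrays (11982 genes).

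Differences were fitted with limma 3.58.1 in R 4.3.3 as 6 group means over all 12 arrays (6 residual degrees of freedom), with moderated statistics and Benjamini-Hochberg adjustment over all probe sets within each comparison; a probe set was called at an adjusted p below 0.05. All 12 comparisons and all 15 pairs of groups were fitted, and pairs that share groups share arrays. Errors printed after ± are standard errors. The number of arrays, 2 per group, limits the precision. Each p-value sets a difference against the spread between replicate pools of animals, which is pooled over the 6 groups and moderated over all probe sets. The fit was also tested on simulated data, and no result of that test is given here.

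All probe sets of the 5 genes are named, every measured gene of the pathway lists could be named, and the 3 genes with the highest Pearson r to each member are given. The members and lists were chosen with earlier results of these data known. Mtor is named Mgtor and nos nanos in the annotation. None of the 5 adult eye genes listed as markers had a probe set of its own, so that list gave no value. The alternatives were quantile normalization, centring each array on its median, recentring each array on the median deviation from the probe set means, removal of dim probe sets, fitting only the arrays of the compared groups, a replicate block, a variance trend with robust estimation, 1 probe set per gene and leaving out each array. Replicate numbers did not pair the samples.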

Additional observations from a re-analysis of the deposited data

Results flagged for a closer look

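The sex difference of each probe set was compared between stages with an interaction term of the limma fit, and 12 such changes passed an adjusted p of 0.05. Each value is the later stage's female minus male difference less that of the earlier stage, on the log2 scale. From larvae to pupae the change of msl-2 was 0.79. From pupae to adults the changes were 1.27 for msl-1, 1.85 for msl-3 probe set 1, 1.93 for msl-3 probe set 2, 0.45 for mle and 2.59 for mof. From larvae to adults they were 1.63 for msl-1, 0.47 for msl-2, 1.97 for msl-3 probe set 1, 2.10 for msl-3 probe set 2, 0.87 for mle and 2.85 for mof. The comparisons with adults share the adult arrays. Over all probe sets 27.2% were called higher from larvae to adults and 27.6% lower.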

How the results depend on the processing

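Of 924 values of single probe sets under the alternatives, 828 kept their direction and side of the threshold, 71 lost the call, 5 gained one and 20 changed sign. The adult sex differences of the 6 probe sets, and that of msl-2 at each stage, kept their calls under all alternatives run. The number of probe sets called for the sex difference in pupae was 5 as reported and 3 after recentring; for larvae to pupae in females it was 2 and 1 with only the groups compared; for pupae to adults in males it was 5 and 3 under quantile normalization. With 1 array left out, the count was 2 to 3 for the sex difference in larvae, 2 to 4 in pupae and 6 in adults. In females it was 1 to 3 from larvae to pupae, 6 from pupae to adults and 4 to 5 from larvae to adults. In males it was 4, 1 to 4 and 4 to 5 over the same steps. For the change of the sex difference it was 1 from larvae to pupae, 4 to 5 from pupae to adults and 5 to 6 from larvae to adults. Calls over all probe sets were also fewer in each of these comparisons with 1 array left out. Same-numbered replicates did not deviate together (15 pairs of groups, r from -0.08 to 0.08). The replicate block gave counts of 4 for the sex difference in pupae, 4 for pupae to adults in males and 4 for the change of the sex difference from pupae to adults, where msl-3 probe set 1 (adjusted p = 0.0593), msl-2 (adjusted p = 0.0545) and mle (adjusted p = 0.0505) were no longer called, and it changed no other call.

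The split of higher and lower calls also moved with the scaling: in pupae it was 2 and 3 as deposited, 3 and 1 under quantile normalization and array-median centring and 0 and 3 after recentring, and in larvae 0 and 3 as deposited and 2 and 1 under array-median centring. The calls over all probe sets moved with the scaling too, as given above. Signs changed only for values not called as reported, except that of msl-3 probe set 1 in pupae. Quantile normalization gave 0.30 for msl-3 probe set 2 and 0.12 for mle in the larval sex difference, -0.062 for msl-3 probe set 1 from larvae to pupae in males and 0.035 for msl-3 probe set 2 from larvae to adults in males. Array-median centring gave 0.36 for msl-3 probe set 2 and 0.29 for mle in larvae and 0.089 for msl-3 probe set 1 in pupae. Recentring gave -0.024 for msl-1 in larvae, -0.11 for msl-3 probe set 2 in pupae and 0.049 for it from larvae to adults in males. With 1 array left out, msl-3 probe set 2 ranged from -0.18 to 0.15 for the larval sex difference, from -0.033 to 0.34 for the pupal one, from -0.071 to 0.31 from larvae to pupae in females, from -0.22 to 0.11 over that step in males, from -0.031 to 0.049 from pupae to adults in males, from -0.21 to 0.12 from larvae to adults in males and from -0.018 to 0.36 for the change of the sex difference from larvae to pupae. In the same way mle ranged from -0.16 to 0.0035 for the larval sex difference and msl-3 probe set 1 from -0.028 to 0.17 from larvae to pupae in males. The cause was not tested.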
